A study of Gallus gallus with 9 samples.

Results

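Among the genes well expressed in sorted cells of chick embryos, the 200 whose levels differed most from embryo to embryo are described here. RNA was sequenced from 5 embryos electroporated with PtcDLoop2 and from 4 control embryos, with 1 library for each embryo. The members were chosen from 12155 genes in all. Genes with a mean of at least 100 normalized counts over the 9 libraries were kept, which left 6280, and the 100 with the highest mean were dropped. Also dropped were 98 genes whose PtcDLoop2 and control values did not overlap, and 17 genes whose lowest value in PtcDLoop2 replicate 3 and control replicates 1, 2 and 4 was at least 10 times the highest in the other libraries. Of the 6065 genes left, the 200 with the largest standard deviation (SD) of log2(value + 1) over the 9 libraries are the members. The spread itself is therefore what chose them, and it is given as a description.

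All embryos were electroporated at Hamburger-Hamilton stages 12 to 13 and incubated for 14 h, to about stage 16. The PtcDLoop2 embryos received the plasmid pCIG-PtcDLoop2, which also makes GFP, and the control embryos received pMES, which makes GFP alone, so the plasmid backbone differed along with the insert. PtcDLoop2 is a form of the Hedgehog receptor Patched that lacks the loop needed to bind ligand, and it is used to hold Hedgehog signalling off in the cells that take it up. The labels call the tissue coelomic epithelium. The piece cut from each embryo ran from behind the heart to the tail end on both sides, and GFP-positive cells were sorted from it, so each library holds those cells that took up plasmid in a piece that spans several axial levels and tissues.

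The coelomic epithelium is the sheet of mesoderm that lines the body cavity, and it gives rise to mesothelium and to cells of the organs beneath it. It lies next to the gut endoderm, which makes Hedgehog ligands, and near the somites, the kidney-forming mesoderm and the neural tube. Genes used by one cell type but not by its neighbours, and Hox genes, which mark position along the body axis, are kinds of gene whose level in a sorted pool can follow which cells were caught. In such a pool, fewer cells of a type and less RNA per cell cannot be told apart. The files give Ensembl numbers only, and 0 of them matched the 25635 entries of the reference gene table, so the members are given by number. Their names, functions and sequences, the markers of the coelomic epithelium and of other cell types, the Hox genes and the Hedgehog targets are not analysed here, and whether cell types or axial level account for any pattern was not tested.

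Reads assigned to genes numbered 10388989 to 13517164 per library. PtcDLoop2 replicate 1 and control replicate 4 stood apart, with 10074 and 10303 genes detected against 10742 to 11697 in the other 7 libraries, although their read totals, 12234207 and 11292863, lay within the range of the rest. The part of the low number of detected genes in the results was not tested. Over the 6065 genes the rule could choose, the correlation of log2 values between libraries ran from 0.698 to 0.936. Results that rest on these 2 libraries are given with and without them.

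The members had an SD of log2(value + 1) between 1.63 and 4.35, with a median of 2.25, while the median over all 6065 genes was 0.49. The last gene inside the limit, ENSGALG00000002991, had an SD of 1.63 and values from 8.80 to 347.9 normalized counts, and the first outside, ENSGALG00000014984, had an SD of 1.62 and values from 19.7 to 915.8. A rough estimate of the spread from counting, based on the inverse of the reads with 0 set to 1, had a median of 0.49 on the log2 scale. Taken gene by gene it was a median of 17.6% of the observed SD. In a gene with a library at 0 or 1 read, that library sets most of this estimate, which does not hold well at so few reads. Mean levels of the members lay between 101.4 and 3829 normalized counts, with a median of 171, against a median of 475.5 for the 6065 genes. Most members were thus near the lower limit on the mean: the rule took 9.32% of the 1298 genes with a mean from 100 to 200, 3.41% of the 1379 from 200 to 400, 1.47% of the 1362 from 400 to 800 and 0.612% of the 980 at 1600 or more.

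**Figure D1:**
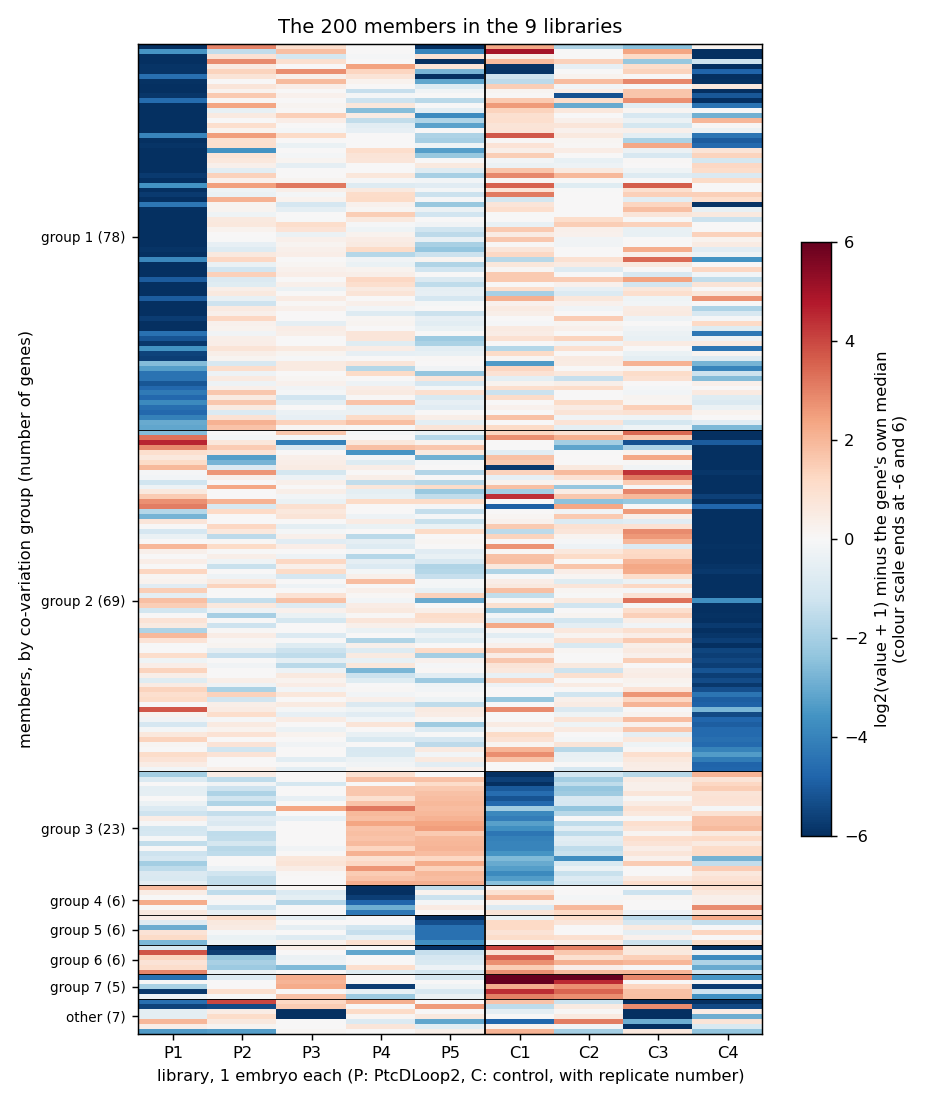
Each row is 1 of the 200 members and each column 1 embryo (P, PtcDLoop2; C, control), coloured by log2(value + 1) minus the gene's own median over the 9 libraries. The 78 genes of group 1 are dark in PtcDLoop2 replicate 1, the 69 of group 2 in control replicate 4, and the 23 of group 3 change across all libraries together.

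In most members 1 embryo was low and the other 8 were not. When the 9 values of a gene are sorted, the largest gap between neighbours splits the libraries into a low and a high side. In 158 of the 200 members (79.0%) this gap set a single library apart, and in 154 of them that library was the low one, in 4 the high one. Over the 6065 genes a single library was set apart in 3549 (58.5%), with 2389 low and 1160 high. The median gap of the members was 4.01 on the log2 scale, and that of all 6065 genes 0.52. Since a large gap gives a large SD, the excess over the background follows in part from the choice of members.

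The single low library was control replicate 4 in 65 members, PtcDLoop2 replicate 1 in 57, control replicate 1 in 20, PtcDLoop2 replicate 4 in 6 and PtcDLoop2 replicate 5 in 4. In a further 12 members PtcDLoop2 replicate 1 and control replicate 4 made up the low side together. Whole reads could be recovered from the values, and 129 of the 200 members had 3 reads or fewer in at least 1 library: 108 in 1 library, 14 in 2 and 7 in 3 or more. These 129 are all the genes among the 6065 with so few reads anywhere, so no gene outside the members had them. This follows largely from the rule, since so few reads in 1 library and a mean of at least 100 together give a large SD. PtcDLoop2 replicate 1 had 60 such members and control replicate 4 had 68, 12 of them shared, while the other libraries had between 1 and 8 each.

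**Figure D2:**
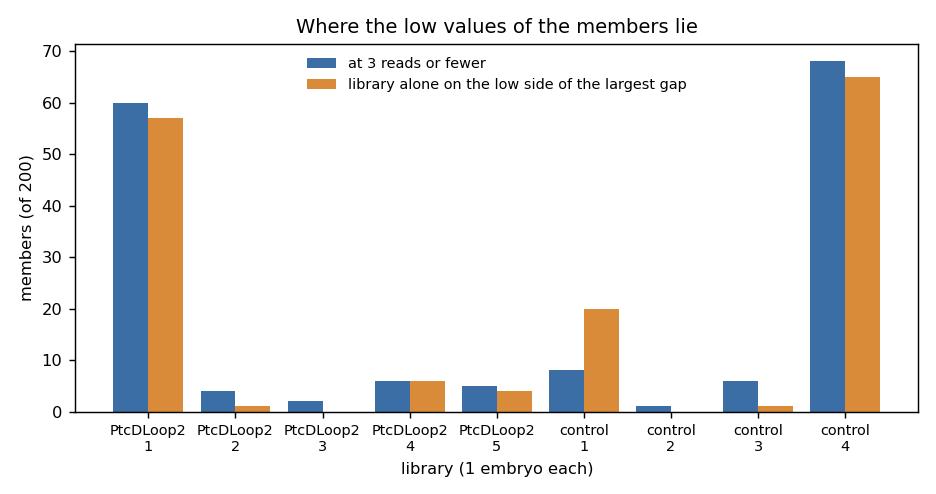
Bars give, for each library, the number of the 200 members with 3 reads or fewer (blue) and the number in which that library alone lay below the largest gap (orange). PtcDLoop2 replicate 1 (60 and 57) and control replicate 4 (68 and 65) stand far above the rest, and control replicate 1 has 8 and 20.

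Such low values can be counted without the rule, by taking every gene of the table whose median over the other 8 libraries was at least 100. In PtcDLoop2 replicate 1, 71 of 6127 such genes (1.16%) had 3 reads or fewer, in control replicate 4 57 of 6107 (0.933%), and in the other libraries between 1 and 17 genes. The share fell with the level of the gene. In PtcDLoop2 replicate 1 it was 3.84% of genes with a median of 100 to 200 elsewhere, 1.09% from 200 to 400, 0.217% from 400 to 800 and 0.145% at 800 or more. In control replicate 4 the shares were 2.99%, 1.11%, 0.219% and 0 of 2082 genes. Among both the 71 and the 57 were 8 genes. They make up 11.3% of the 71, where the share of control replicate 4 over all such genes was 0.933%. Of the 57 they make up 14.0%, where the share of PtcDLoop2 replicate 1 was 1.16%. These overall shares are not matched for level and so overstate the contrast. Of the 71 genes, 50 had a median of 100 to 200 elsewhere, where the share of control replicate 4 was 2.99%. Of the 57 genes, 39 lay at that level, where the share of PtcDLoop2 replicate 1 was 3.84%.

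Group 1, the largest set of members that varied together, held 78 genes that were low in PtcDLoop2 replicate 1. Groups were formed by average linkage on 1 minus Pearson's r, with branches joined up to 0.5, and 193 of the members fell into 7 groups of at least 5. In 69 of the 78 genes PtcDLoop2 replicate 1 was the lowest library, in 55 it had 3 reads or fewer and in 26 it had 0. Control replicate 4 had 3 reads or fewer in 12 of the 78. The median over these genes in PtcDLoop2 replicate 1 was 0.90 normalized counts, that is 1 read, against 84.05 to 246.4 in the other libraries. PtcDLoop2 replicate 5, the lowest of these others at 84.05, lay below the gene's own median in 59 of the 78. Without PtcDLoop2 replicate 1 far less shared variation was left. The median r over the 3003 pairs of genes was 0.76 over 9 libraries and 0.23 over the other 8 (Spearman's rho 0.40 and 0.17). The median over all pairs of the 6065 genes was 0.00. These correlations are a description over few libraries, and the genes were grouped by them.

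ENSGALG00000008930 lay closest to the mean pattern of group 1. It had 6.40, 672.8, 562, 325.3 and 224.1 normalized counts in PtcDLoop2 replicates 1 to 5, and 698.2, 549.7, 787.8 and 279.1 in control replicates 1 to 4. The value in PtcDLoop2 replicate 1 rests on 7 reads, and the next lowest library lay 35.0-fold above it. ENSGALG00000026605 had 0.90, 147.3, 169.7, 126.2 and 94.9 in the PtcDLoop2 embryos, the first from 1 read, and 184.3, 157.3, 110 and 75.5 in the controls. In both genes the other 4 PtcDLoop2 embryos lay within or close to the range of the controls, and only PtcDLoop2 replicate 1 stood outside it by more than the spread of the rest.

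Group 2 held 69 genes with the same shape in the other library of few detected genes. Control replicate 4 was the lowest library in 67 of them, with 3 reads or fewer in 50 and 0 in 19. The median there was 1.10 normalized counts, again 1 read, and 120.3 to 316.8 in the other libraries. The median r of the 2346 pairs was 0.83 over 9 libraries and 0.15 without control replicate 4 (Spearman's rho 0.38 and 0.14). The summed level of the group's genes was 285.1 normalized counts in control replicate 4 and between 13825 and 48625 elsewhere.

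ENSGALG00000011395, closest to the mean pattern of group 2, had 571.6, 424.9, 408.3, 368.3 and 270.5 normalized counts with PtcDLoop2. Its controls had 419.8, 433.1, 570.3 and, in control replicate 4, 14.2 from 13 reads. It varied little among the rest, with an SD of 0.32 on the log2 scale over the 7 libraries other than PtcDLoop2 replicate 1 and control replicate 4. ENSGALG00000027927 had 351.6, 277.6, 282.9, 258.6 and 174.1 with PtcDLoop2 and 297.5, 440.5, 652.4 and 1.10 in the controls, the last from 1 read. In ENSGALG00000027927 control replicate 4 lay far below all other embryos, while control replicates 2 and 3 lay above every PtcDLoop2 embryo.

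Groups 4 and 5, of 6 genes each, repeated this form in PtcDLoop2 replicates 4 and 5, which were the lowest library in all 6 genes of their group. ENSGALG00000022866 of group 4 had 150, 72.0, 97.9, 4.10 and 99.4 normalized counts with PtcDLoop2 and 173.4, 231.4, 81.2 and 177.3 in the controls. ENSGALG00000016462 of group 4 had 160.2, 39.2, 65.0, 0 and 136 with PtcDLoop2 and 218.1, 115.7, 48.4 and 179.5 in the controls. PtcDLoop2 replicate 4 was the low embryo in both, with 4 reads and 0 reads. Without the low library the median r was 0.37 in group 4 and 0.01 in group 5, over 15 pairs each.

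**Figure D3:**
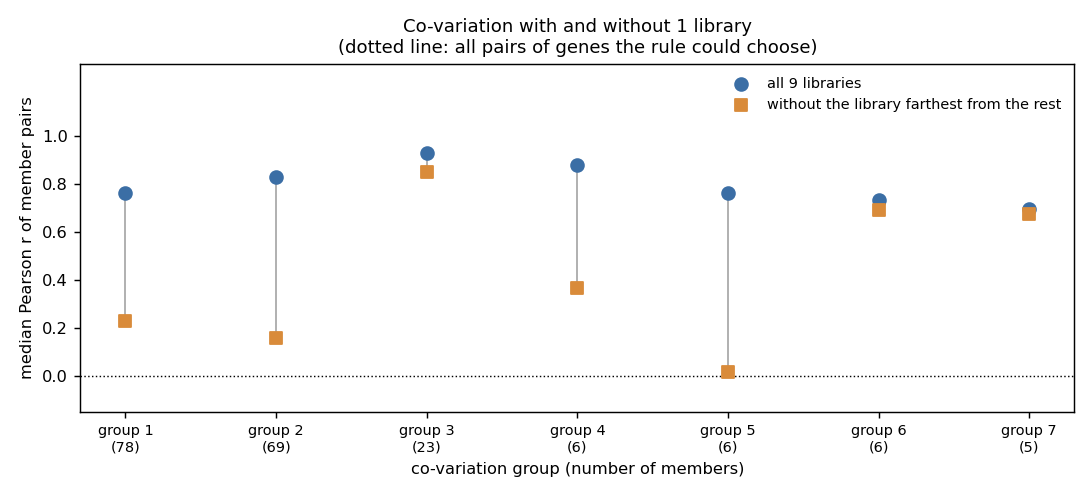
Points give the median Pearson r over all pairs of members in each of the 7 groups, over 9 libraries (circles) and without the library whose median lay farthest from the rest (squares). The value drops from 0.76 to 0.23 in group 1 and from 0.83 to 0.15 in group 2, and stays high in group 3, at 0.93 and 0.85.

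Group 3 differed from these groups: its 23 genes moved together across the embryos, and still did so when their lowest library was left out. They were lowest in control replicate 1, with a median of 10.0 normalized counts, and low in control replicate 2 (63.9), PtcDLoop2 replicate 2 (75.2) and PtcDLoop2 replicate 1 (98.5). They were intermediate in control replicate 3 (181.4) and PtcDLoop2 replicate 3 (183.5), and high in control replicate 4 (341.5) and PtcDLoop2 replicates 4 (416.6) and 5 (458.7). This order runs across the groups, since each holds low and high embryos. Control replicate 1 was the lowest library in 21 of the 23 genes and control replicate 2 in the other 2, and PtcDLoop2 replicate 4 or 5 was the highest in 21. Over all 200 members control replicate 1 was the lowest library in 24. Most of the 20 members in which it alone lay below the largest gap are therefore in group 3. PtcDLoop2 replicates 4 and 5 both lay above PtcDLoop2 replicates 1, 2 and 3 and control replicates 1 and 2 in 20 of the 23. That count leaves out control replicates 3 and 4, and the genes were grouped by these same values. The share of such genes among all that the rule could choose was not counted.

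The median r of the 253 pairs of group 3 was 0.93 over 9 libraries, 0.85 without control replicate 1 and 0.95 without PtcDLoop2 replicate 1 and control replicate 4 (Spearman's rho 0.88, 0.83 and 0.93). All 253 pairs had an r above 0 with and without control replicate 1. At the low end of the order control replicate 1 had 11568553 reads and 10901 genes detected. At the high end PtcDLoop2 replicates 4 and 5 had 11306854 and 11837451 reads and 10742 and 11096 genes. PtcDLoop2 replicate 1, among the low embryos, had 10074 genes detected, and control replicate 4, among the high ones, had 10303. The part of depth or of genes detected in this order was not tested. The members of this group had reads in nearly every library, with 3 reads or fewer in 4 genes in control replicate 1 and in none of the genes elsewhere.

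**Figure D4:**
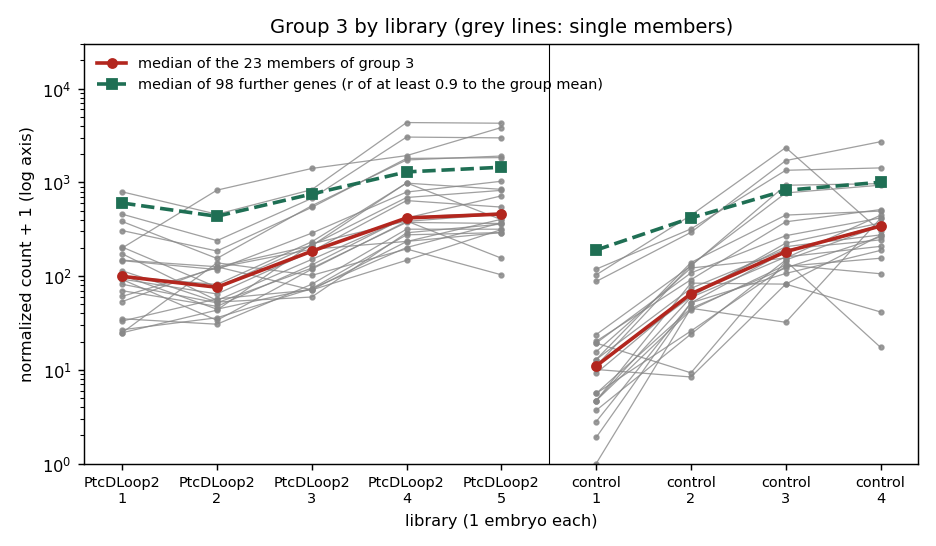
Normalized count + 1 (log axis) in each embryo for the 23 members of group 3 (grey), their median (red) and the median of 98 genes outside the members (green). The 98 genes had an r of at least 0.9 to the mean of the group both over 9 libraries and without control replicate 1. Both medians are lowest in control replicate 1 (10.0 and 188.9) and highest in PtcDLoop2 replicate 5 (458.7 and 1452).

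ENSGALG00000008291, the gene closest to the mean of group 3, had 92.0, 63.6, 183.5, 639.2 and 544.6 normalized counts in PtcDLoop2 replicates 1 to 5, a mean of 304.6 ± 268.1 (SD, n = 5). In control replicates 1 to 4 it had 8.20, 63.9, 205.2 and 274.7, a mean of 138 ± 123.2 (SD, n = 4). ENSGALG00000006691 had 305.6, 184.4, 540.6, 1803 and 1839 with PtcDLoop2 and 10.0, 130.5, 771.4 and 933.6 in the controls. In both genes the SD within each group was close to the group's mean, and the ranges of the groups overlapped. The r of these genes to the mean of group 3 was 1.00 over 9 libraries and 0.99 without control replicate 1.

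The pattern of group 3 reached well beyond the members. Of the 5865 genes that the rule could choose and did not, 98 (1.67%) had an r of at least 0.9 to the mean of group 3 both over 9 libraries and without control replicate 1. For groups 1 and 2, with their own low library left out, this number was 0. That contrast was close to fixed in advance. Of the members themselves, 0 of 78 in group 1 and 1 of 69 in group 2 met both limits, and 16 of 23 in group 3. Over 9 libraries alone the numbers outside the members were 52 for group 1, 31 for group 2 and 228 for group 3. The 98 genes had smaller spreads, with SDs from 0.32 to 1.59 and a median of 0.91, and higher levels, with a median of their means of 756.2 normalized counts. Since they were picked for following the mean of group 3, their order of embryos was largely set in advance. All 98 were lowest in control replicate 1, and 96 were highest in PtcDLoop2 replicate 4 or 5. Their median level ran from 188.9 in control replicate 1 through 416.4 in control replicate 2 and 434.4 in PtcDLoop2 replicate 2 to 1294 and 1452 in PtcDLoop2 replicates 4 and 5. No gene outside the members had an r of -0.9 or below both ways, although 16 had one over all 9 libraries.

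When the rule was applied to the 7 libraries other than PtcDLoop2 replicate 1 and control replicate 4, a choice made once the values were known, 76 of the 200 members (38.0%) were chosen again. Of group 1, 20 of 78 were kept, of group 2 18 of 69, and of group 3 22 of 23. The largest set of genes that varied together among those 200 then held 106 genes, and the 22 kept from group 3 were all in it. It had a similar order of embryos, with control replicate 1 lowest, at -2.96 on the log2 scale from the genes' own medians, and PtcDLoop2 replicates 4 and 5 highest, at 1.19 and 1.43. A single low library was again common among the 200 genes chosen over 7 libraries. The largest gap set 1 library apart in 154 of them, as the low one in 136. Control replicate 1 was that low library in 86, so the order of this set rests in part on it. The 200 were again chosen by SD, and the share set apart over all genes the rule could choose was not counted here. Of these 200, 20 had 3 reads or fewer in at least 1 library, against 129 of the original 200 over 9 libraries. Over these 7 libraries the median SD of the original 200 was 1.22, and 12 of them had an SD below the median of all 6065 genes, 0.44.

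Groups 6 and 7, with 6 and 5 genes, were high in controls, and control replicate 4 was not among their high embryos. In group 7 the median of the normalized counts was 1088 in control replicate 1, 341.5 in control replicate 2, 141.1 in control replicate 3 and 2.20 in control replicate 4, and 1.8 to 128.5 with PtcDLoop2. In group 6 it was 1502, 698.2, 257.6 and 29.6 in the controls and 27.6 to 407.8 with PtcDLoop2, highest in PtcDLoop2 replicate 1. Control replicates 1, 2 and 3 all lay above control replicate 4 and PtcDLoop2 replicates 2, 4 and 5 in 9 of the 11 genes. That count leaves out PtcDLoop2 replicates 1 and 3. In group 6 the median of PtcDLoop2 replicate 1 (407.8) was above that of control replicate 3 (257.6). In group 7 the median of PtcDLoop2 replicate 3 (128.5) was close to that of control replicate 3 (141.1). Control replicates 1 and 2 both lay above every PtcDLoop2 embryo in 6 of the 11. The genes were grouped by these same values, and the share of such genes among all that the rule could choose was not counted. The median r was 0.73 in group 6 and 0.70 in group 7, and 0.69 and 0.67 without control replicate 1. Group 7 ran partly opposite to group 3 (r of the group means -0.72 over 9 libraries and -0.44 without control replicate 1). This was not particular to group 7, since group 3 had a negative r with each of the other groups over 9 libraries. Without control replicate 1 its r ran from -0.57 with group 5 and -0.52 with group 4 to 0.16 with group 1.

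The members with the largest SD of all were in these groups. ENSGALG00000026098 of group 6 had 81.0, 0, 205.7, 156 and 0 normalized counts with PtcDLoop2 and 2574, 1261, 239.6 and 1.10 in the controls. ENSGALG00000012332 of group 7 had 1.8, 33.9, 275.3, 60.5 and 29.9 with PtcDLoop2 and 14716, 3975, 458.7 and 4.40 in the controls. In ENSGALG00000012332 the mean of the 4 controls, 4788 ± 6852 (SD, n = 4), rests mainly on control replicate 1. The same library carried ENSGALG00000024011 of group 7, named after its values were seen, with 1088 normalized counts there, 21.3 in control replicate 2, 3.10 in PtcDLoop2 replicate 3 and 0 in the other 6 libraries.

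**Figure D5:**
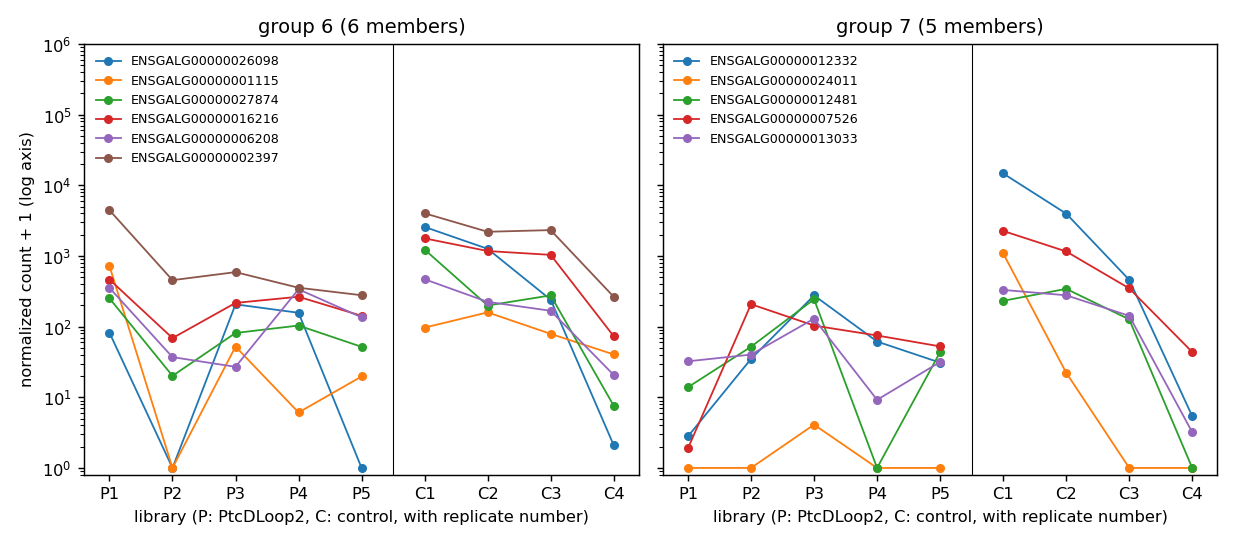
Normalized count + 1 (log axis) for each member of group 6 (left) and group 7 (right) in the PtcDLoop2 (P1 to P5) and control (C1 to C4) embryos. Control replicates 1, 2 and 3 are high in most genes. The medians of control replicate 4 (29.55 and 2.20) lie near those of the lowest PtcDLoop2 embryo (27.55 and 1.8) and below those of the other PtcDLoop2 embryos. In group 6 PtcDLoop2 replicate 1 lies near the other controls.

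The remaining 7 members fell into sets of under 5. In this remainder ENSGALG00000001754 and ENSGALG00000012674, named after their values were seen, were at 0 in the same embryos, PtcDLoop2 replicate 3 and control replicate 3. PtcDLoop2 replicate 3 has the most reads of all libraries and control replicate 3 has 11976863. ENSGALG00000001754 had between 89.3 and 298.6 normalized counts in the other 7 embryos, and ENSGALG00000012674 had between 16.4 and 275.5. A further gene of the same set, ENSGALG00000017173, had 1.6 normalized counts in control replicate 3 but 163.6 in PtcDLoop2 replicate 3. At 3 reads, the limit that a count of 0 allows, PtcDLoop2 replicate 3 could hold up to 2.29 normalized counts and control replicate 3 up to 2.46. Such limits cover counting error only.

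The comparison of PtcDLoop2 with control embryos asks which genes of these cells depend on Hedgehog signalling. The rule dropped genes whose groups did not overlap, so the members' values in this comparison are a description. By limma on log2(value + 1) with Benjamini-Hochberg adjustment at 0.05, 0 of 9621 genes were called (0%), and so 0 of the 199 members that passed the filter on low values. The member that did not pass was ENSGALG00000024011. Before adjustment 459 genes (4.77%) had a p under 0.05, among them 10 members, 6 with the higher mean in PtcDLoop2 and 4 with the lower. With limma-voom, fitted to whole reads, the calls numbered 0 as well, and 13 members were among the 397 genes with an unadjusted p under 0.05. Of 12150 genes in the authors' deposited table, 13 (0.107%) have an adjusted p under 0.05, and 0 of these are members. The lowest adjusted p of a member in the authors' deposited table is 0.11, for ENSGALG00000012332 and ENSGALG00000014178. Before adjustment the authors' deposited table has 694 genes (5.71%) with a p under 0.05, and 15 are members.

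Differences between the group means were large in many members, which follows in part from their choice by SD. In no tested member did the differences pass the limma test. Over the 200 members they ran from -4.15 to 4.40 on the log2 scale, with a median of 0.22, and 104 were above 0 and 96 below. The median over the 9621 genes tested was -0.01. For ENSGALG00000012332 the difference was -4.15 ± 2.19 (SE) with limma adjusted p = 0.911, and -2.62 without control replicate 1 and -6.43 without control replicate 4. For ENSGALG00000006691 it was 1.82 ± 1.27 (SE) with limma adjusted p = 0.911, and 0.47 without control replicate 1. In the 2 large groups the direction went with the low library: the difference was below 0 in 65 of the 78 genes of group 1 and above 0 in 63 of the 69 of group 2. Without PtcDLoop2 replicate 1 and control replicate 4 it was below 0 in 55 of the 78 and in 54 of the 69, with medians of -0.43 and -0.67 in place of -1.49 and 1.00. In group 3 it was above 0 in all 23 genes, with a median of 1.39, and of 2.25 without those 2 libraries. These genes were grouped for moving together, so they are not 23 separate results. In this group PtcDLoop2 replicate 1 was low for its group and control replicate 4 high, so leaving them out raises the difference. Without control replicate 1, the lowest library, ENSGALG00000008291 fell from 1.44 to 0.43. The median of group 3 without control replicate 1 was not computed.

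A fit that left out PtcDLoop2 replicate 1 and control replicate 4 was added once the values were known. Limma then called 5 of 9621 genes, each with the lower mean in PtcDLoop2. Of these, 2 are members, both of group 6. ENSGALG00000002397 had 4442, 453.5, 589.5, 354 and 277.2 normalized counts in PtcDLoop2 replicates 1 to 5. In control replicates 1 to 3 it had 4014, 2199 and 2322, and in control replicate 4 it had 263.8. PtcDLoop2 replicate 1 was thus at the level of the high controls and control replicate 4 at that of the low PtcDLoop2 embryos, and these were the libraries left out. Why they lay there was not tested, and the calls over 7 libraries rest on leaving them out. The log2 fold change of -2.76 ± 0.31 (SE) with limma adjusted p = 0.0124 over 7 libraries was -1.23 ± 0.94 (SE) with limma adjusted p = 0.913 over 9. ENSGALG00000016216 had 463, 67.8, 215.6, 263.7 and 141.2 with PtcDLoop2 and 1774, 1173, 1036 and 72.2 in the controls. Its control replicate 4 lay among the lowest PtcDLoop2 values and its PtcDLoop2 replicate 1 was the highest of its group. The log2 fold change of ENSGALG00000016216 was -3.07 ± 0.44 (SE) with limma adjusted p = 0.0485 over 7 libraries, and -1.72 ± 0.89 (SE) with limma adjusted p = 0.911 over 9.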

How the data were processed

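RNA sequencing values of 9 embryos, 5 PtcDLoop2 and 4 control, were used. The tools named in the submitters' processing notes are DESeq, DESeq2, HTSeq 0.6.1p1, STAR 2.4 and cutadapt 1.8.3, and the build is galGal4. The deposited expression table holds, for each library, read counts that the authors scaled by a factor and gave to 1 decimal, judging from the values. The authors' deposited comparison table gives, per the file headers, a mean signal per gene, a log2 fold change and p-values with and without adjustment. Whole reads were recovered by fitting the value of 1 read per library, and the farthest value was 0.0535 normalized counts from a whole read. The check of units could not read the columns, since each line is quoted whole, so the planned count model was not run.

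Limma tests covered the 9621 genes that reached 10 normalized counts in 4 or more libraries, with limma 3.58.1 in R 4.3.3, with a mean-variance trend, robust empirical Bayes and group as the only term. The test was checked on simulated data. The simulation held no libraries set apart as seen here, so it gives no measure of the power of the test for the members. The SD, gaps and correlations were computed on log2(value + 1) with numpy 2.4.6, pandas 2.3.3 and scipy 1.17.1, and figures drawn with matplotlib 3.10.9. Each library is a separate embryo, per the series text. Named genes are the 2 with the highest r to the mean of each of the 4 largest groups and the 2 of largest SD, with exceptions stated where they occur; groups of equal size were ordered by mean r. The members, groups and lists were chosen with earlier results of these data known. Marker and pathway lists could not be matched to identifiers and were not used. Same-numbered libraries did not deviate together (correlations of deviations from -0.07 to 0.06).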

Additional observations from a re-analysis of the deposited data

Results flagged for a closer look

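In 26 sets of 4 or 5 libraries (the named genes on the log2 scale and 3 library measures), the gap of the highest or lowest library to its neighbour was set against the range of its group. Chance marks about 1 in 20 such sets, but the named genes were chosen for following groups that 1 library sets apart, so this rate does not hold for them. Nor does it hold for the number of members at 3 reads or fewer, since the rule chose the members by the spread of these same values. A total of 8 were marked. PtcDLoop2 replicate 1, with 60 members at 3 reads or fewer, lay far from the other PtcDLoop2 libraries, and control replicate 4, with 68, lay far from the other controls. PtcDLoop2 replicate 1 was also far below its group in ENSGALG00000008930, at 6.40 normalized counts, and in ENSGALG00000026605, at 0.90. Control replicate 4 was far below its group in ENSGALG00000011395, at 14.2, and in ENSGALG00000027927, at 1.10. PtcDLoop2 replicate 4 was far below its group in ENSGALG00000022866, at 4.10, and in ENSGALG00000016462, at 0.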

How the results depend on the processing

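The fits without PtcDLoop2 replicate 1 and control replicate 4, and the count of group 3 genes that stay together, were chosen after seeing the data. Of 17 alternative fits, 16 called 0 genes and 0 members; without those 2 libraries limma called 5 genes and 2 members. Leaving out 1 library at a time gave 0 genes and 0 members each time. A replicate block by title number over 8 libraries gave 0 genes and 0 members. The choice of members depended on the rule: 92 of the 200 were chosen by the median absolute deviation, 27 with a mean of at least 500, which is every member with such a mean, 76 without the 2 libraries, and 125 to 187 without 1 library, fewest without control replicate 4. A single library was set apart in 130 to 160 members over 12 alternatives. The largest group held 34 members by Spearman's rho, 40 by complete linkage, 32 without the 2 libraries and 68 to 89 without 1 library. The cause was not tested. These are sizes of whichever group was largest, and whether it held the genes of group 1 was not followed. The 89 was reached without PtcDLoop2 replicate 1, where the median r of group 1 was 0.23. Of the 23 members of group 3, 19 to 23 stayed in 1 group over 14 alternatives. The log2 fold change changed sign in ENSGALG00000011395 (-0.24 to 1.5 without 1 library, lowest without control replicate 4, and -0.37 without both libraries), ENSGALG00000027927 (-0.75 to 2.01, lowest without control replicate 4, and -0.85) and ENSGALG00000026605 (-1.54 to 0.078, highest without PtcDLoop2 replicate 1), each where its low library was left out. The other genes named for their r to a group mean or for the largest SD kept their direction in 17 of 17 alternatives. Genes named for other reasons were not followed over all of these alternatives. The planned edgeR fit was not run.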
